A study of Mus musculus and Homo sapiens with 18 samples.

Results

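The genes described here are 55 mouse genes of mitosis and of the G2 to M transition, picked by symbol and summed over their transcripts by gene identifier, out of 55858 genes in the mouse tables. Each symbol matched 1 gene identifier, and all 55 passed the low-count filter in both comparisons. The study sequenced poly(A) RNA of bladder carcinoma. The 4 mouse groups, of 3 libraries each, were tumours labelled as relapsed after cisplatin and gemcitabine in a genetically engineered mouse model (GEMM), control tumours of that model, cells of the mouse line CUUC-G given an Igfbp5 guide RNA (sgIgfbp5), and CUUC-G cells given the control guide sgScr. The labels call the targeted cells knockdowns and the series design calls them knockouts, and they name no strain, age, allele or promoter of the mouse model. Nothing in the labels says whether the libraries of a group came from separate tumours or cultures, so p-values measure the spread between these libraries, which may be technical. The 55 genes lie on 17 chromosomes. Human libraries of the series were not used here.

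A dividing cell enters mitosis when cyclins A and B activate the kinase Cdk1, which phosphatase Cdc25 and the Plk1 and Aurora kinases help to switch on. Kinetochores then attach chromosomes to the spindle, the spindle checkpoint holds the cell until all are attached, and the anaphase-promoting complex with Cdc20 ends mitosis by marking securin and cyclin B for destruction. Most of these transcripts are made late in the cycle by the MuvB complex with B-Myb (Mybl2) and FoxM1, which act through a promoter element called the cell cycle genes homology region (CHR), often with CCAAT boxes upstream that bind NF-Y. In bladder and other carcinomas such genes are used as markers of proliferating cells. In bulk RNA, fewer cells of a type and less RNA per cell cannot be told apart, so a level here can reflect the share of cells in mitosis or the transcript number in each.

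Total estimated counts lay between 18964942 and 21757109 in the tumour libraries and between 19210830 and 20729980 in CUUC-G. CPM below are depth-normalised counts with TMM scaling, used within a gene, and TPM are the authors' length-scaled values, used between genes. Igfbp5, the targeted gene (ENSMUSG00000026185.9), had 0.606, 0.393 and 0.47 CPM with sgIgfbp5, against 1.04, 2.56 and 2.31 CPM with sgScr, a log2 fold change of -1.999 ± 0.42 (SE). These rest on 30 counts over the sgIgfbp5 and 114 over the sgScr libraries. In the tumour table it had 149 counts over the relapsed and 27 over the control libraries. The Y-linked gene Ddx3y had 0 counts in the relapsed tumours and 4503 in the control tumours, so relapse and the presence of Y transcripts cannot be told apart in any tumour comparison below. Ddx3y also had 0 counts in the CUUC-G libraries of both guides. Of 14 immune markers, 9 were listed at 0 in all relapsed and 5 in all control tumours, with summed levels of 5.81 to 10.7 TPM in relapsed and 2.69 to 4.41 TPM in control tumours. The leukocyte marker Ptprc was listed at 0 in the relapsed libraries and in all CUUC-G libraries. In CUUC-G the immune markers summed to 3.25 to 4.05 TPM with sgIgfbp5 and 7.46 to 9.4 TPM with sgScr. Most of the sum was Cd68, at a mean of 6.14 TPM in relapsed and 3.08 TPM in control tumours, and 2.94 TPM with sgIgfbp5 and 4.81 TPM with sgScr. Of 9 endothelial and red cell markers 3 were listed at 0 in each tumour group, and their summed levels were 37.3 to 40.0 TPM in relapsed and 0.65 to 1.12 TPM in control tumours. In CUUC-G these summed to 2.54 to 3.35 TPM with sgIgfbp5 and 34.1 to 37.8 TPM with sgScr. Kdr alone carried these differences, at a mean of 37.9 TPM in relapsed and 0.387 TPM in control tumours, and 1.93 TPM with sgIgfbp5 and 35.4 TPM with sgScr. The other 8 markers each averaged under 0.5 TPM in all 4 groups, and Tek and Vwf went the other way, with Tek at 0.0286 TPM in relapsed and 0.265 TPM in control tumours, and 0.399 TPM with sgIgfbp5 and 0 with sgScr. The 15 epithelial markers summed to 664 to 684 TPM in relapsed and 18.6 to 24.2 TPM in control tumours, with 6 and 4 of them at a mean of 1 TPM or more, and Krt5 and Upk3a were listed at 0 in both groups. They summed to 129 to 151 TPM with sgIgfbp5 and 692 to 715 TPM with sgScr. Krt19, Krt8, Krt18 and Upk1b carried most of the sum in relapsed tumours, at means of 333, 118, 103 and 89.0 TPM. With sgScr these 4 genes were at 363, 124, 103 and 77.3 TPM. Epcam, Krt7 and Trp63 each averaged under 1 TPM in all 4 groups. Gata3 went against the sum, at a mean of 0.825 TPM in relapsed and 8.38 TPM in control tumours, and 8.74 TPM with sgIgfbp5 and 0.699 TPM with sgScr, as did Upk1a. Trp63 did so in CUUC-G alone, at 0.508 TPM with sgIgfbp5 and 0.335 TPM with sgScr. Krt20 did so in the tumours alone, at 0 in relapsed and 0.0274 TPM in control tumours. The 9 fibroblast markers summed to 2380 to 2400 TPM in relapsed and 5760 to 5930 TPM in control tumours, and to 1250 to 1400 TPM with sgIgfbp5 and 2280 to 2490 TPM with sgScr. Collagen genes made up most of that sum. Pdgfra, Dcn, Lum and Fap were higher in relapsed tumours, with Pdgfra at a mean of 26.7 TPM in relapsed and 3.4 TPM in control tumours. Col3a1 and Pdgfrb were higher with sgIgfbp5, with Col3a1 at 364 TPM with sgIgfbp5 and 174 TPM with sgScr. The part of these marker differences in the results below was not tested.

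Promoter windows of 300 bases, from 250 before to 50 after the start site, were listed by RefSeq (GRCm38.p6) for 45 of the 55 genes, in 50 windows, and not for Cdc25c, Tpx2, Ccna2, Dlgap5, Kif20a, Foxm1, Aurkb, Spc24, Smc4 and Incenp. They were searched for the CHR letters TTTGAA and TTTAAA and for CCAAT, each on both strands (TTTAAA reads the same on both, and CCAATTGG counts once on each strand). A CHR match lay in 37 of the 50 windows (74.0%), against 27.6% of all 32851 windows in the table. CCAAT lay in 36 of the 50 (72.0%), against 37.4% of all windows, and 31 of the 50 held both (62.0%), against 10.7% of all windows. Of 50 CHR matches in the first window of each gene, 23 lay in the 50 bases after the start and 13 in the 50 before it. Of 68 CCAAT matches, 23 lay in the 50 bases before the start and 21 in the next 50 upstream. A match is a description of letters and not of a bound site. The windows below show both motifs in 3 genes with large changes (Ccnb2, Mki67 and Cenpf) and in Ube2c with its 6 CCAAT matches, and show Nuf2 and Pttg1, which hold no match. Kif20b, Kif15 and Birc5 also had large changes, and their windows hold CHR matches and no CCAAT. The Pttg1 window lies wholly inside the annotated gene (chr11:43420250-43426251, minus strand). Bases upstream of the annotated start of Pttg1 were therefore not searched. The windows shown are written 5′ to 3′ on the gene's strand with every CHR and CCAAT match in capitals.
Ccnb2 (chr9:70421505-70421804, minus strand): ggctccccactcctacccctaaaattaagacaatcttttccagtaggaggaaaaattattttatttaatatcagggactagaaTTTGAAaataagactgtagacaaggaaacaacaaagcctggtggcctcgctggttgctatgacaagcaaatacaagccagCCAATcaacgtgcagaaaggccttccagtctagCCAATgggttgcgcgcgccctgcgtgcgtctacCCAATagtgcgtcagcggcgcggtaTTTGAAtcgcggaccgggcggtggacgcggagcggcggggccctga
Mki67 (chr7:135716330-135716629, minus strand): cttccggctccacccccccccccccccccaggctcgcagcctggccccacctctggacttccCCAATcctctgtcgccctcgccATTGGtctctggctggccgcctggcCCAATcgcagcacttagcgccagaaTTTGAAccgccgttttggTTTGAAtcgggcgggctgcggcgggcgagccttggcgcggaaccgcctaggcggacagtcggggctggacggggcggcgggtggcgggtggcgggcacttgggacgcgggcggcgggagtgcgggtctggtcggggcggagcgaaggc
Cenpf (chr1:189688037-189688336, minus strand): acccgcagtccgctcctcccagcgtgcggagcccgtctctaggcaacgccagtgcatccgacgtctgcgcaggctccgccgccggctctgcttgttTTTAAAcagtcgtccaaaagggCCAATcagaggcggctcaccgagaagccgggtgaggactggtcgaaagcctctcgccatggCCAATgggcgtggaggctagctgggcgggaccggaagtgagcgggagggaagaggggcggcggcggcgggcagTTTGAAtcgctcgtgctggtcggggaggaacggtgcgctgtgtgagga
Ube2c (chr2:164769679-164769978, plus strand): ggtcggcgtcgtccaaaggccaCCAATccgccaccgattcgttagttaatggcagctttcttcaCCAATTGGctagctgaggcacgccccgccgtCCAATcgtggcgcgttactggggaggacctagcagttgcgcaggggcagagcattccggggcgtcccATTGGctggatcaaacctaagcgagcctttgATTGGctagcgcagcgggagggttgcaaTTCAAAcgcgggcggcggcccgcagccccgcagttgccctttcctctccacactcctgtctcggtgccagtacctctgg
Nuf2 (chr1:169531415-169531714, minus strand): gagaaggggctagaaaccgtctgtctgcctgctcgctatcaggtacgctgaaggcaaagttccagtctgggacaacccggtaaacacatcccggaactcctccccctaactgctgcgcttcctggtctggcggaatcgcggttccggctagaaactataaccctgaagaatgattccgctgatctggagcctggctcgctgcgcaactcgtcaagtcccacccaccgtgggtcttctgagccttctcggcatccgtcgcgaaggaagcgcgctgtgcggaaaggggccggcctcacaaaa
Pttg1 (chr11:43425932-43426231, minus strand): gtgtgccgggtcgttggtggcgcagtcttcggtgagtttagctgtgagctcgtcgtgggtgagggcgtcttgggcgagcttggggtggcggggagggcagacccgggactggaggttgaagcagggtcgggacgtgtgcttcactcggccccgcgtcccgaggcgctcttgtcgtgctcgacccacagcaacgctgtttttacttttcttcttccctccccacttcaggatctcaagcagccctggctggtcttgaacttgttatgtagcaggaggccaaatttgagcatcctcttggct

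**Figure D1:**
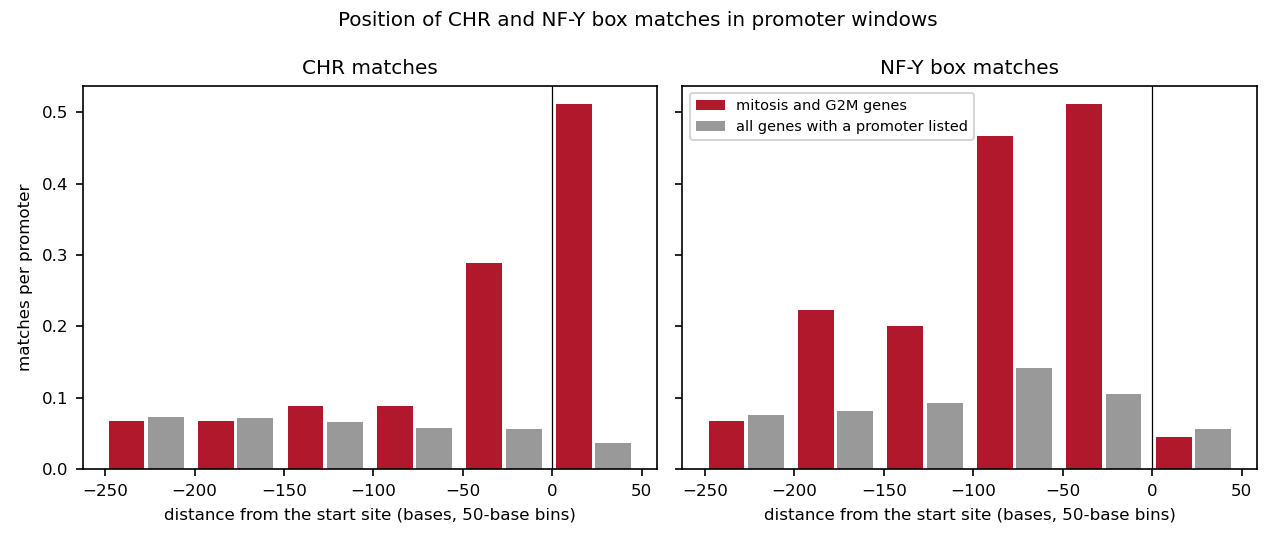
Matches per promoter (y axis) by distance from the start site in bases (x axis, 50-base bins), for the first listed window of 45 mitosis and G2M genes and of 27025 genes in all, with CHR matches on the left and NF-Y box (CCAAT) matches on the right. CHR matches of the mitosis genes are densest just after the start, at 0.511 per promoter against 0.036 over all genes, and NF-Y boxes just before it, at 0.511 against 0.105.

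In the listed windows, 28 of the 45 genes held both motifs and 8 held neither, which were Kif18a, Mad2l1, Melk, Mybl2, Ncaph, Nuf2, Nusap1 and Pttg1. The median log2 fold change of the 28 genes was 0.61 at relapse and -1.90 with sgIgfbp5, and that of the other 17 was 0.56 and -1.80. The ranges overlapped widely, from 0.02 to 2.19 for the 28 and from -0.83 to 1.76 for the 17 at relapse. Nuf2, with no match, had log2 fold changes of 1.33 at relapse and -2.66 with sgIgfbp5.

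The mitosis genes were mostly higher in the relapsed than in the control tumours and nearly all lower with sgIgfbp5 than with sgScr. At relapse 45 of the 55 genes rose and 2 fell, while 8 missed the threshold, by edgeR's quasi-likelihood test with Benjamini-Hochberg adjustment over 14373 genes. Over all genes tested, 36.6% rose and 36.9% fell (73.5% in either direction), so a call by itself is common in these data and the difference lies in its direction. The median log2 fold change of the 55 genes was 0.56, against 0.00188 over all genes, and 12 of the 55 rose at least 2-fold, against 13.2% of all genes. With sgIgfbp5 54 of the 55 genes fell, none rose and 1, Pttg1, did not pass (edgeR, 14553 genes), against 34.3% of all genes lower and 36.5% higher (70.8% in either direction). Their median log2 fold change was -1.77, against 0.06 over all genes, and 40 of them fell at least 2-fold, against 16.8% of all genes. The adjusted p of the called genes ran from 1.5e-21 for Mki67 to 0.014 for Bub1 at relapse (edgeR). It ran from 4.81e-10 for Ccna2 to 0.0197 for Bub3 in CUUC-G (edgeR). Scaling by library size alone moved the median of all genes by 0.11 upward in CUUC-G, and 53 of the 55 genes were then lower. Tests on log2(TPM + 1) with limma moved the median of all genes at relapse by -0.12 and left 38 genes higher and 4 lower, where 3438 of all 13333 genes tested were higher and 5028 lower.

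**Figure D2:**
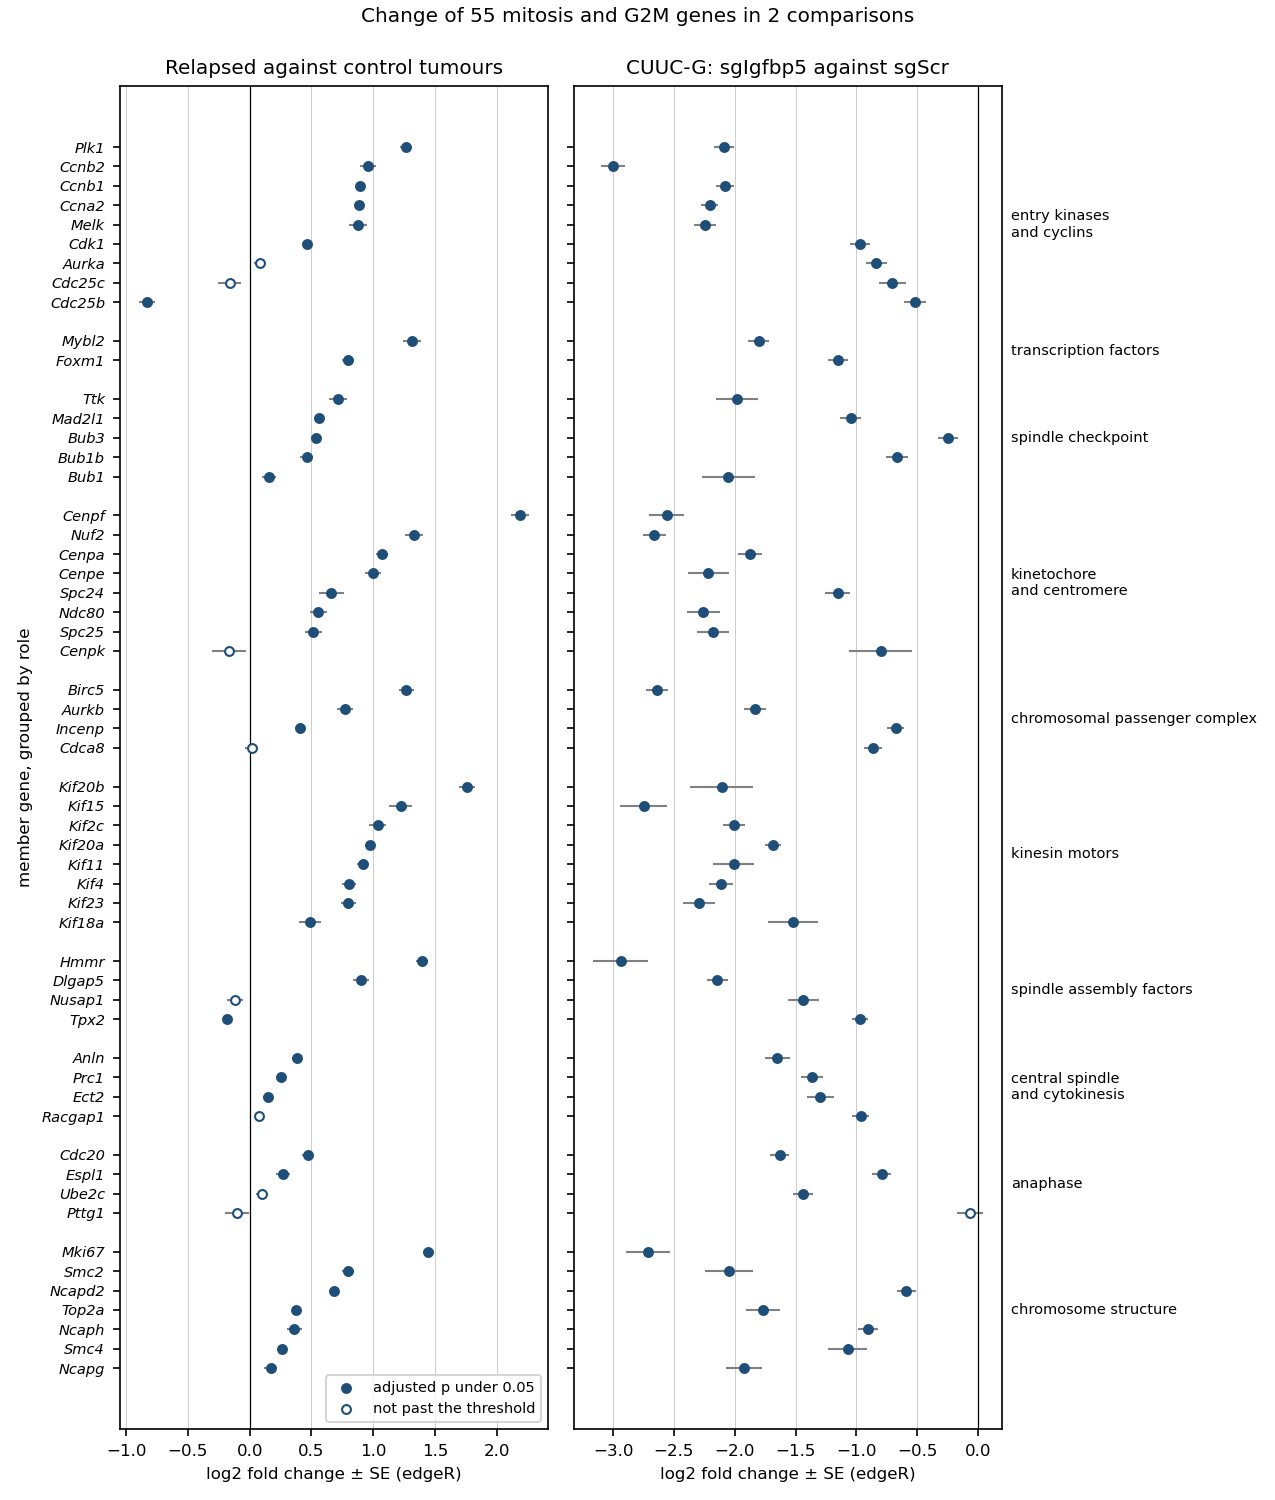
The log2 fold change with its SE (x axis) of each of the 55 genes (rows, grouped by role), for relapsed against control tumours on the left and sgIgfbp5 against sgScr CUUC-G on the right (n = 3 libraries a group), with open points for genes not past the threshold. On the left the points spread from -0.83 for Cdc25b to 2.19 for Cenpf, and on the right all lie below 0, down to -2.999 for Ccnb2.

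Among the kinases, cyclins and phosphatases that start mitosis, 6 of 9 rose at relapse, Cdc25b fell, and Cdc25c and Aurka did not pass, while all 9 fell with sgIgfbp5. Ccnb1 encodes cyclin B1, the main partner of Cdk1 in mitosis. It had 208, 205 and 203 CPM in the relapsed tumours, against 109.8, 114 and 109 CPM in the control tumours. In CUUC-G it had 45.3, 46.7 and 42.2 CPM with sgIgfbp5, against 184, 191 and 193 CPM with sgScr. The groups did not overlap in either comparison, with a log2 fold change of 0.89 ± 0.04 (SE) at relapse and -2.08 ± 0.07 with sgIgfbp5. Ccnb2, which encodes cyclin B2, had 65.03, 62.01 and 62.3 CPM in the relapsed tumours, against 29.4, 34.96 and 33.3 CPM in the control tumours. Its levels were 8.48, 9.25 and 8.503 CPM with sgIgfbp5, against 64.3, 70.3 and 75.2 CPM with sgScr. That log2 fold change of -2.999 ± 0.10 was the steepest of the 55 genes, from a gene that rose by 0.96 ± 0.07 at relapse. Ccna2, the cyclin of S and G2 phase, had 178, 172 and 175 CPM in the relapsed tumours, against 97.1, 92.3 and 94.2 CPM in the control tumours. It was at 33.9, 34.4 and 34.9 CPM with sgIgfbp5, against 157, 155 and 164 CPM with sgScr. The log2 fold changes were 0.89 ± 0.04 at relapse and -2.21 ± 0.07 with sgIgfbp5.

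The kinases moved less evenly than the cyclins. Cdk1 had 179.7, 179.5 and 177 CPM in the relapsed tumours, against 131, 125 and 133 CPM in the control tumours, and 94.5, 102 and 86.9 CPM with sgIgfbp5, against 174, 189 and 193 CPM with sgScr. Its changes of 0.47 ± 0.04 and -0.97 ± 0.08 lay closer to 0 than those of its cyclins, and at 296 TPM in relapsed tumours it was the most abundant of the 55 genes there. Plk1, a kinase needed for centrosome maturation and cytokinesis, had 121, 117 and 125 CPM in the relapsed tumours, against 52.9, 47.2 and 50.7 CPM in the control tumours. In CUUC-G, Plk1 stood at 29.2, 32.9 and 28.8 CPM with sgIgfbp5, against 125, 131 and 130.3 CPM with sgScr. It rose by 1.27 ± 0.05 at relapse, the most of this role, and its change with sgIgfbp5 was -2.09 ± 0.08. Aurka, the kinase of spindle poles, had 109, 107 and 106 CPM in the relapsed tumours, against 103, 101 and 99.5 CPM in the control tumours. Although the groups did not overlap, the log2 fold change of 0.08 ± 0.04 did not pass (edgeR adjusted p = 0.0882), and on the authors' TPM its sign was negative. With a filter of at least 1 CPM in 3 libraries Aurka passed as higher (edgeR adjusted p = 0.0487). In CUUC-G Aurka fell, at 56.4, 66.4 and 59.5 CPM with sgIgfbp5, against 101, 111 and 113 CPM with sgScr. Melk, a kinase of proliferating cells, changed by 0.88 ± 0.07 at relapse and -2.24 ± 0.09 with sgIgfbp5.

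The phosphatases that remove the inhibitory phosphates of Cdk1 did not rise at relapse. Cdc25b had 47.3, 41.7 and 40.2 CPM in the relapsed tumours, against 75.9, 80.5 and 73.7 CPM in the control tumours. It was the clearest fall among the 55 genes at relapse, -0.83 ± 0.06 on the log2 scale, with no overlap between the groups. In CUUC-G it also fell, with a log2 fold change of -0.52 ± 0.09, at 27.5, 28.97 and 26.4 CPM with sgIgfbp5, against 41.2, 36.2 and 41.4 CPM with sgScr. Cdc25c had 19.1, 22.9 and 18.6 CPM in the relapsed tumours, against 23.9, 22.8 and 21.02 CPM in the control tumours, and 13.8, 12.7 and 11.6 CPM with sgIgfbp5, against 19.3, 19.8 and 22.9 CPM with sgScr. The tumour groups overlapped and the change of -0.16 ± 0.09 did not pass (edgeR adjusted p = 0.116), while with sgIgfbp5 the change was -0.70 ± 0.11. Without relapsed replicate 2, Cdc25c was past the threshold as lower, with a log2 fold change of -0.25 (edgeR adjusted p = 0.0268). It was also past it as lower on log2(TPM + 1) and log2(TPM + 0.1) (limma adjusted p = 0.0411 and 0.0461).

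Both transcription factors of the late cell cycle rose at relapse and fell with sgIgfbp5. Mybl2 encodes B-Myb, which joins the MuvB complex. It had 58.5, 57.9 and 60.01 CPM in the relapsed tumours, against 22.6, 26.3 and 22.2 CPM in the control tumours, with no overlap. In CUUC-G, Mybl2 had 16.96, 19.3 and 17.2 CPM with sgIgfbp5, against 60.4, 65.7 and 60.7 CPM with sgScr. The log2 fold changes were 1.31 ± 0.07 at relapse and -1.80 ± 0.09 with sgIgfbp5. Foxm1, the forkhead factor of G2 phase genes, had 107, 111 and 116 CPM in the relapsed tumours, against 65.4, 63.8 and 63.05 CPM in the control tumours. With the guides it had 48.7, 52.3 and 50.5 CPM with sgIgfbp5, against 122, 109 and 104 CPM with sgScr. Its changes were 0.80 ± 0.05 and -1.15 ± 0.08, smaller than those of Mybl2 in both comparisons, a difference between genes that was not tested.

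All 5 genes of the spindle checkpoint rose at relapse, from 0.16 ± 0.06 for Bub1 to 0.71 ± 0.07 for Ttk, the kinase Mps1 that starts the signal. All 5 were lower with sgIgfbp5, with log2 fold changes from -0.25 ± 0.08 for Bub3 to -2.05 ± 0.22 for Bub1. Bub1, a kinase that binds kinetochores, had 75.1, 76.5 and 70.6 CPM in the relapsed tumours, against 65.7, 71.4 and 62.3 CPM in the control tumours. The tumour groups overlapped, and Bub1 was not past the threshold without relapsed replicate 1 or 2 or control replicate 3 (edgeR adjusted p = 0.0556, 0.0614 and 0.122), nor on TPM. In CUUC-G it had 20.9, 9.69 and 13.2 CPM with sgIgfbp5, against 62.6, 60.4 and 58.4 CPM with sgScr, with sgIgfbp5 replicate 1 above the other sgIgfbp5 libraries and no overlap with sgScr. Bub3, which carries Bub1 and BubR1 to kinetochores and also has partners outside mitosis, had 163, 162 and 160.3 CPM in the relapsed tumours, against 109, 108 and 118 CPM in the control tumours. In CUUC-G the groups overlapped, at 136, 150.4 and 135 CPM with sgIgfbp5, against 149.7, 175 and 174 CPM with sgScr. Its fall of 0.25 ± 0.08 did not pass without sgIgfbp5 replicate 1 or 3 or sgScr replicate 2 or 3 (edgeR adjusted p between 0.0523 and 0.0939), nor with library size scaling or on TPM. Bub1b, which encodes BubR1, changed by 0.46 ± 0.05 at relapse and -0.66 ± 0.09 with sgIgfbp5, and Mad2l1, which encodes the Cdc20 inhibitor Mad2, by 0.56 ± 0.05 and -1.05 ± 0.09. Ttk fell by 1.98 ± 0.17 with sgIgfbp5.

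Of 8 kinetochore and centromere genes, 7 rose at relapse and Cenpk did not pass, and all 8 fell with sgIgfbp5. Cenpf, a large kinetochore protein of G2 and M phase, had 58.4, 60.3 and 57.95 CPM in the relapsed tumours, against 12.7, 13.4 and 12.7 CPM in the control tumours. No other of the 55 genes rose as far, with a log2 fold change of 2.19 ± 0.07. In CUUC-G it fell by 2.56 ± 0.14, at 11.5, 7.57 and 10.6 CPM with sgIgfbp5, against 64.5, 57.5 and 52.9 CPM with sgScr. Nuf2, a subunit of the Ndc80 complex that grips microtubules, had 63.9, 56.9 and 58.8 CPM in the relapsed tumours, against 23.99, 22.1 and 25.2 CPM in the control tumours. In CUUC-G, Nuf2 had 8.94, 9.34 and 8.46 CPM with sgIgfbp5, against 58.4, 57.00 and 53.6 CPM with sgScr. The libraries of each group lay close together, and the changes were 1.33 ± 0.07 and -2.66 ± 0.09. The 3 partners of Nuf2 in that complex rose by less at relapse, 0.56 ± 0.07 for Ndc80, 0.51 ± 0.07 for Spc25 and 0.66 ± 0.10 for Spc24. With sgIgfbp5 the log2 fold changes were -2.26 ± 0.14 for Ndc80, -2.18 ± 0.13 for Spc25 and -1.15 ± 0.10 for Spc24. Cenpa, the histone H3 variant that marks centromeres, changed by 1.07 ± 0.05 and -1.88 ± 0.10, and Cenpe, a kinesin of kinetochores, by 1.001 ± 0.06 and -2.22 ± 0.17. Cenpk, of the constitutive centromere network, had 7.18, 9.06 and 9.903 CPM in the relapsed tumours, against 10.8, 8.57 and 9.96 CPM in the control tumours, and 6.01, 2.61 and 3.48 CPM with sgIgfbp5, against 6.93, 6.87 and 7.21 CPM with sgScr. The tumour groups overlapped (log2 fold change -0.17 ± 0.14, edgeR adjusted p = 0.284), and sgIgfbp5 replicate 1 stood above the other sgIgfbp5 libraries. On TPM Cenpk did not pass with sgIgfbp5, and Spc24 did not pass at relapse.

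The chromosomal passenger complex corrects wrong attachments, with Aurkb as its kinase and Birc5, Cdca8 and Incenp as the subunits that place it. At relapse 3 of its 4 genes rose and Cdca8 did not pass, and with sgIgfbp5 all 4 fell. Birc5, which encodes survivin, had 72.8, 77.7 and 77.8 CPM in the relapsed tumours, against 33.1, 30.6 and 31.02 CPM in the control tumours. In CUUC-G, Birc5 had 13.7, 14.1 and 13.4 CPM with sgIgfbp5, against 78.3, 86.00 and 92.5 CPM with sgScr. It changed the most of the complex, by 1.27 ± 0.06 and -2.64 ± 0.09. Aurkb had 65.4, 65.2 and 63.3 CPM in the relapsed tumours, against 40.2, 35.4 and 37.8 CPM in the control tumours, and 16.6, 19.7 and 19.4 CPM with sgIgfbp5, against 67.7, 65.3 and 66.2 CPM with sgScr. Its changes were 0.77 ± 0.06 and -1.84 ± 0.09, with no overlap in either comparison. Cdca8, which encodes borealin, had 72.02, 75.01 and 74.03 CPM in the relapsed tumours, against 76.3, 67.3 and 74.8 CPM in the control tumours. Those tumour values overlapped, at a log2 fold change of 0.02 ± 0.05 whose sign turned negative by library size, without a low-count filter, without control replicate 2 and on TPM. In CUUC-G Cdca8 fell by 0.87 ± 0.08, at 43.5, 45.5 and 43.4 CPM with sgIgfbp5, against 77.1, 79.9 and 84.5 CPM with sgScr. Incenp, the scaffold, changed by 0.41 ± 0.04 and -0.68 ± 0.07, and on TPM did not pass at relapse. The subunits of this complex spanned log2 fold changes of 0.02 to 1.27 at relapse.

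All 8 kinesin motors rose at relapse and all 8 fell at least 2-fold with sgIgfbp5. Kif20b, a kinesin of late cytokinesis, had 98.5, 95.6 and 92.6 CPM in the relapsed tumours, against 25.2, 28.3 and 31.2 CPM in the control tumours. It rose by 1.76 ± 0.07, next to Cenpf among the 55 genes. In CUUC-G it had 25.4, 10.9 and 19.4 CPM with sgIgfbp5, against 89.7, 76.8 and 73.1 CPM with sgScr, with sgIgfbp5 replicate 2 lowest and all 3 sgIgfbp5 libraries below all sgScr libraries. Kif11, the Eg5 motor that separates the spindle poles, had 170.2, 168 and 163 CPM in the relapsed tumours, against 83.95, 95.4 and 85.7 CPM in the control tumours. With the guides, Kif11 had 48.7, 27.5 and 38.7 CPM with sgIgfbp5, against 159.7, 151 and 152 CPM with sgScr. Its changes were 0.92 ± 0.05 and -2.01 ± 0.17. Kif20a, a kinesin of the central spindle, had 193, 192 and 195 CPM in the relapsed tumours, against 98.1, 99.6 and 97.4 CPM in the control tumours. In CUUC-G, Kif20a had 61.04, 62.1 and 62.8 CPM with sgIgfbp5, against 202, 201 and 196 CPM with sgScr. Replicates of Kif20a were close in all 4 groups, and it changed by 0.98 ± 0.04 and -1.69 ± 0.07. Kif15, a spindle motor that can act beside Kif11, had 35.8, 35.4 and 33.8 CPM in the relapsed tumours, against 12.6, 16.8 and 15.7 CPM in the control tumours, and 6.31, 3.54 and 3.99 CPM with sgIgfbp5, against 34.5, 31.6 and 26.8 CPM with sgScr. The change with sgIgfbp5, -2.75 ± 0.19, was the steepest of the motors. The other motors rose by 1.04 ± 0.07 for the microtubule depolymerase Kif2c, 0.80 ± 0.06 for the X-linked chromokinesin Kif4, 0.80 ± 0.06 for Kif23 and 0.49 ± 0.09 for Kif18a, which damps chromosome movement. With sgIgfbp5 the log2 fold changes of these 4 lay between -2.29 ± 0.13 for Kif23 and -1.52 ± 0.20 for Kif18a.

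Spindle assembly factors split at relapse, where Hmmr and Dlgap5 rose, Tpx2 fell and Nusap1 did not pass, and all 4 fell with sgIgfbp5. Hmmr, a spindle-pole protein that also serves as a hyaluronan receptor, had 113, 116 and 115 CPM in the relapsed tumours, against 41.1, 45.7 and 44.2 CPM in the control tumours. In CUUC-G, Hmmr had 15.8, 7.33 and 14.3 CPM with sgIgfbp5, against 105, 94.4 and 87.5 CPM with sgScr. Its changes were 1.39 ± 0.05 and -2.94 ± 0.23, and sgIgfbp5 replicate 2 was the lowest library. Tpx2, which activates Aurora A on the spindle, had 172, 179.9 and 175 CPM in the relapsed tumours, against 193, 205 and 199.9 CPM in the control tumours. It fell on the log2 scale by 0.18 ± 0.04 (edgeR adjusted p = 0.000105), small but with no overlap. In CUUC-G it fell further, by 0.97 ± 0.06, at 95.3, 93.05 and 93.3 CPM with sgIgfbp5, against 182, 186 and 183 CPM with sgScr. Nusap1, a microtubule bundler, had 41.6, 42.4 and 42.7 CPM in the relapsed tumours, against 46.9, 46.6 and 44.3 CPM in the control tumours. Its log2 fold change of -0.12 ± 0.06 did not pass (edgeR adjusted p = 0.0875), though the groups did not overlap, and it passed as lower on TPM and by library size. In CUUC-G, Nusap1 had 16.7, 11.2 and 13.01 CPM with sgIgfbp5, against 36.4, 38.1 and 35.9 CPM with sgScr, a fall of 1.44 ± 0.13. Dlgap5, which stabilises microtubules near chromosomes, changed by 0.90 ± 0.06 and -2.14 ± 0.08.

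Genes of the central spindle and cytokinesis changed little at relapse and more with sgIgfbp5. Of 4 genes 3 rose at relapse, by 0.38 ± 0.04 for the actin-binding anillin gene Anln, 0.26 ± 0.04 for Prc1 and 0.15 ± 0.04 for the RhoA activator Ect2. On TPM the change of Ect2 was -0.02, and neither Ect2 nor Prc1 passed. All 4 fell with sgIgfbp5, with log2 fold changes of -1.65 ± 0.10 for Anln, -1.36 ± 0.09 for Prc1, -1.30 ± 0.11 for Ect2 and -0.97 ± 0.07 for Racgap1. Prc1, which bundles the midzone microtubules, had 154, 154 and 159.5 CPM in the relapsed tumours, against 132, 129 and 129.9 CPM in the control tumours, and 62.2, 49.6 and 53.9 CPM with sgIgfbp5, against 147, 138 and 141 CPM with sgScr. The difference between the tumour groups was small beside that in CUUC-G, and neither pair of groups overlapped. Racgap1, the partner of Kif23 in centralspindlin, had 183, 187 and 187 CPM in the relapsed tumours, against 174, 183 and 171 CPM in the control tumours. Its change of 0.08 ± 0.04 did not pass (edgeR adjusted p = 0.0671) and was negative on TPM, yet it passed as higher without control replicate 2 (edgeR adjusted p = 0.0131), with RLE scaling (0.0468) and with the 1 CPM filter (0.0326). In CUUC-G, Racgap1 had 96.9, 96.4 and 89.5 CPM with sgIgfbp5, against 189.9, 184 and 179 CPM with sgScr.

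The 4 genes that carry the cell through anaphase moved little at relapse, where Cdc20 and Espl1 rose and Ube2c and Pttg1 did not pass. With sgIgfbp5, 3 of the 4 fell. Cdc20, which activates the anaphase-promoting complex, had 99.4, 99.3 and 99.8 CPM in the relapsed tumours, against 70.4, 73.2 and 72.05 CPM in the control tumours. In CUUC-G, Cdc20 had 34.1, 38.2 and 35.00 CPM with sgIgfbp5, against 106, 114 and 113 CPM with sgScr. Its changes were 0.47 ± 0.05 and -1.63 ± 0.08, with no overlap in either comparison. Ube2c, the ubiquitin-conjugating enzyme of that complex, had 146, 136 and 147 CPM in the relapsed tumours, against 132, 143 and 124 CPM in the control tumours. The tumour groups overlapped at 0.10 ± 0.05 (edgeR adjusted p = 0.0545), and the sign was negative on TPM. It passed as higher without relapsed replicate 2 or control replicate 2 (edgeR adjusted p = 0.0209 and 0.0025), with RLE scaling (0.0424) and with the 1 CPM filter (0.0304). On the length scale Ube2c stood at 301, 280.1 and 303 TPM in the relapsed tumours, against 294, 324 and 281 TPM in the control tumours, and at 299.5 TPM its mean was the highest of the 55 genes in the control tumours. In CUUC-G it fell by 1.44 ± 0.08, at 55.5, 55.3 and 50.8 CPM with sgIgfbp5, against 144, 136 and 158 CPM with sgScr. Pttg1 encodes securin, the inhibitor of separase. It had 17.8, 18.03 and 14.9 CPM in the relapsed tumours, against 19.1, 18.2 and 17.04 CPM in the control tumours, and 15.9, 16.4 and 15.6 CPM with sgIgfbp5, against 16.2, 15.4 and 18.6 CPM with sgScr. Both pairs of groups overlapped, with log2 fold changes of -0.10 ± 0.10 (edgeR adjusted p = 0.345) and -0.07 ± 0.11 (edgeR adjusted p = 0.579). The CUUC-G sign of Pttg1 was positive by library size and without sgScr replicate 3. Espl1, the separase gene, changed by 0.27 ± 0.06 and -0.79 ± 0.08, and on TPM it did not pass in either comparison.

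All 7 genes of chromosome structure rose at relapse and fell with sgIgfbp5. Mki67 encodes Ki-67, which coats mitotic chromosomes and is the usual marker of proliferation. It had 219.9, 232 and 219 CPM in the relapsed tumours, against 77.7, 84.5 and 84.1 CPM in the control tumours. In CUUC-G, Mki67 had 33.6, 21.9 and 35.9 CPM with sgIgfbp5, against 233, 194 and 173 CPM with sgScr. The changes were 1.45 ± 0.04 and -2.71 ± 0.18, and the sgScr libraries spread by 15.2% of their mean (SD), the widest of the 55 genes in that group. Top2a, the topoisomerase that untangles sister chromatids, had 541, 549 and 547 CPM in the relapsed tumours, against 393, 444 and 424 CPM in the control tumours. With the guides it stood at 172, 112 and 143 CPM with sgIgfbp5, against 525, 479.8 and 448 CPM with sgScr. It changed by 0.38 ± 0.04 at relapse, less than Mki67, and by -1.76 ± 0.14 with sgIgfbp5. Condensin I compacts chromosomes, and its 5 genes rose by 0.80 ± 0.05 for Smc2, 0.68 ± 0.04 for Ncapd2, 0.36 ± 0.06 for Ncaph, 0.26 ± 0.04 for Smc4 and 0.17 ± 0.05 for Ncapg. With sgIgfbp5 the order was another, from -2.05 ± 0.20 for Smc2 and -1.93 ± 0.15 for Ncapg to -1.07 ± 0.16 for Smc4, -0.91 ± 0.08 for Ncaph and -0.59 ± 0.08 for Ncapd2. Ncapg did not pass at relapse without relapsed replicate 1 (edgeR adjusted p = 0.0562) or on TPM.

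**Figure D3:**
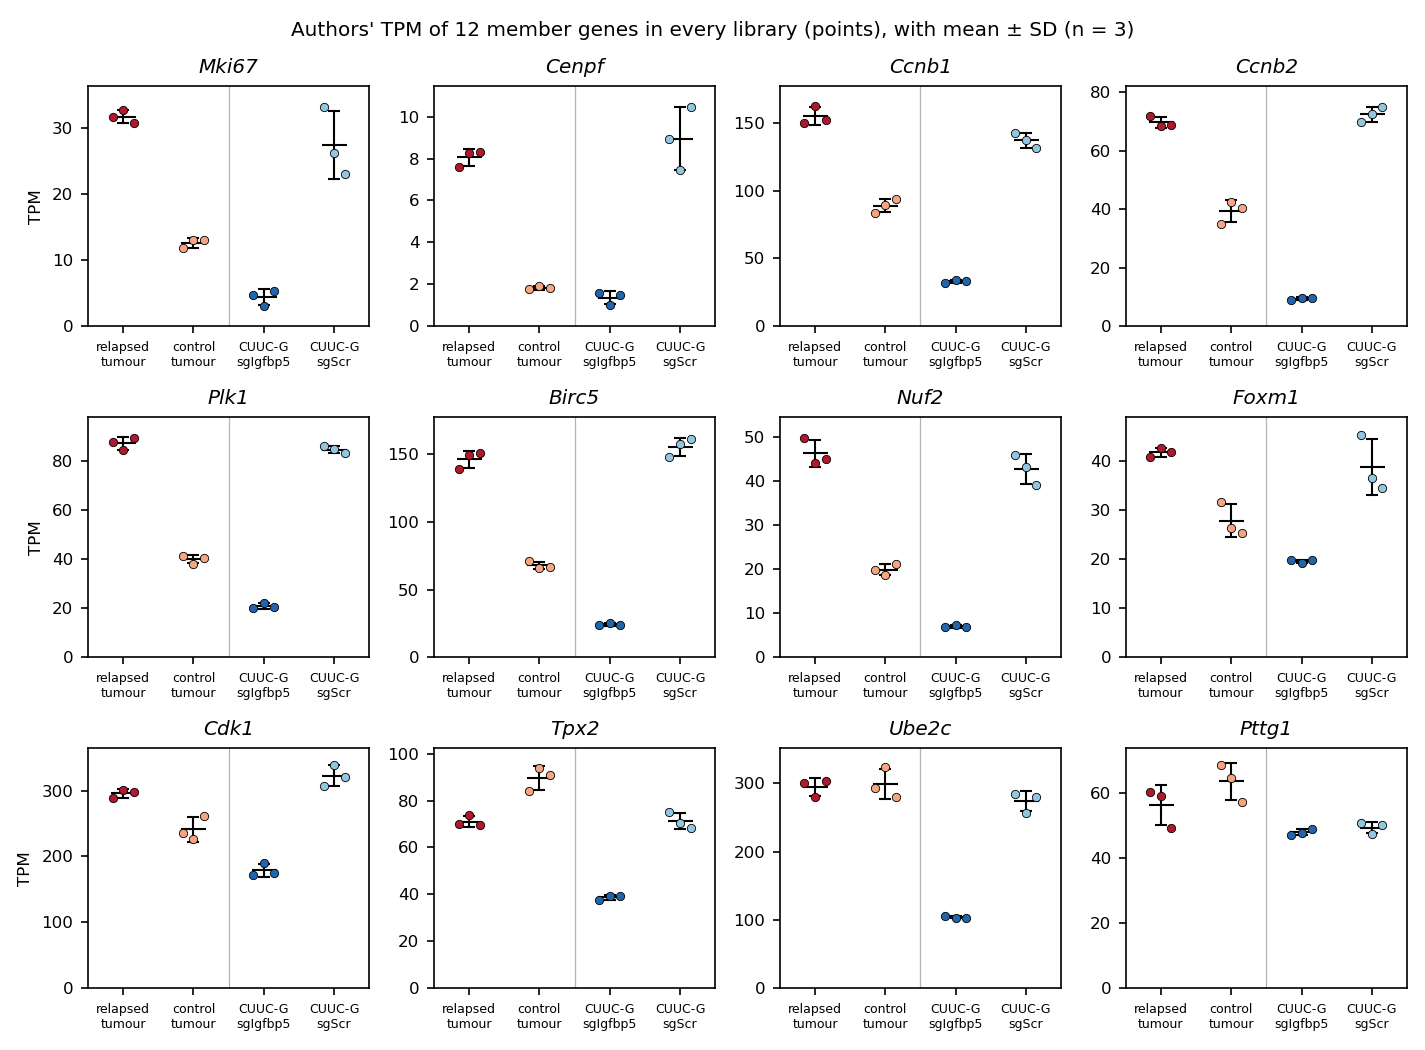
The authors' TPM (y axis, from 0) of 12 of the genes in every library, by group (x axis), with points for libraries and a horizontal line for the mean with its SD (n = 3). Mki67, Ccnb1, Plk1 and Nuf2 are high in relapsed tumours and sgScr cells, lower in control tumours and lowest in sgIgfbp5 cells, while Ube2c is low in sgIgfbp5 cells alone among the groups and Pttg1 lies between 47.1 and 68.3 TPM in every library.

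Libraries of a group differed little beside the differences between groups. The libraries did not overlap for 46 genes higher and 3 lower at relapse, against 37.5% and 37.8% of all genes, and for 53 genes lower with sgIgfbp5, against 35.8% of all genes. The SD of a gene was at the median 2.64% of its mean in relapsed and 4.57% in control tumours, 8.59% with sgIgfbp5 and 6.09% with sgScr. The lowest of the 3 sgIgfbp5 libraries was replicate 2 for 26 genes, and the highest was replicate 1 for 31. Without replicate 2 of sgIgfbp5, 54 genes were still lower, and without replicate 1 it was 53. Summed over the 55 genes, the authors' TPM came to 3840, 3861 and 3829 in relapsed, against 2903, 2974 and 2918 in control tumours. The sum was 1498, 1409 and 1478 with sgIgfbp5, against 3763, 3627 and 3590 with sgScr. Mitochondrial transcripts held 7.42% to 7.74% of TPM in relapsed and 8.38% to 9.38% in control tumours, and 5.43% to 7.69% with sgIgfbp5 and 6.54% to 7.57% with sgScr.

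The tables of tumours and of CUUC-G were deposited separately, so levels across them are set side by side with no test. The mean TPM of a gene was lowest with sgIgfbp5 for 54 of the 55 genes and lowest in the control tumours for Bub3. In relapsed tumours the genes were at the median 1.095-fold their level in sgScr cells, from 0.72-fold for Spc24 to 1.53-fold for Kif15, and 54 of the 55 lay within 1.5-fold. In control tumours they were at the median 2.31-fold their level in sgIgfbp5 cells, from 0.87-fold for Bub3 to 4.805-fold for Bub1, with 13 of 55 within 1.5-fold. The median gene was at 51.8 TPM in relapsed and 35.7 TPM in control tumours, and at 18.3 TPM with sgIgfbp5 and 47.5 TPM with sgScr. Cenpf was the least abundant in 3 of the groups, at 8.06 TPM in relapsed and 1.84 TPM in control tumours and 1.36 TPM with sgIgfbp5.

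The 2 comparisons use different libraries. Relapsed tumours are the tested group at relapse, and sgScr cells are the reference group in CUUC-G. Levels of the 55 genes in these 2 groups were close, at the median 1.095-fold and for 54 of the 55 within 1.5-fold. Their summed levels were also close in each marker list. Opposite signs in the 2 comparisons can therefore not be read as separate evidence. Why these 2 groups were close was not tested. Of the 55 genes, 45 rose at relapse and fell with sgIgfbp5 (81.8%), against 24.7% of the 13904 genes tested in both. The other 10 were Cdc25b and Tpx2, which fell in both, Pttg1, which passed in neither, and 7 that fell with sgIgfbp5 alone, Cdc25c, Aurka, Cenpk, Cdca8, Nusap1, Racgap1 and Ube2c. Genes that rose most at relapse tended to fall most with sgIgfbp5, with a Spearman rho of -0.75 across the 55 genes and -0.61 across all genes. Within each comparison all genes were measured in the same libraries, so the genes are not independent points. Bub1 and Ncapg departed from this order, since they rose by 0.16 ± 0.06 and 0.17 ± 0.05 at relapse and changed by -2.05 ± 0.22 and -1.93 ± 0.15 with sgIgfbp5. Transcript length went weakly with the changes, with a rho of 0.20 at relapse and -0.16 with sgIgfbp5 across the 55 genes, against -0.10 and 0.03 over all genes.

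**Figure D4:**
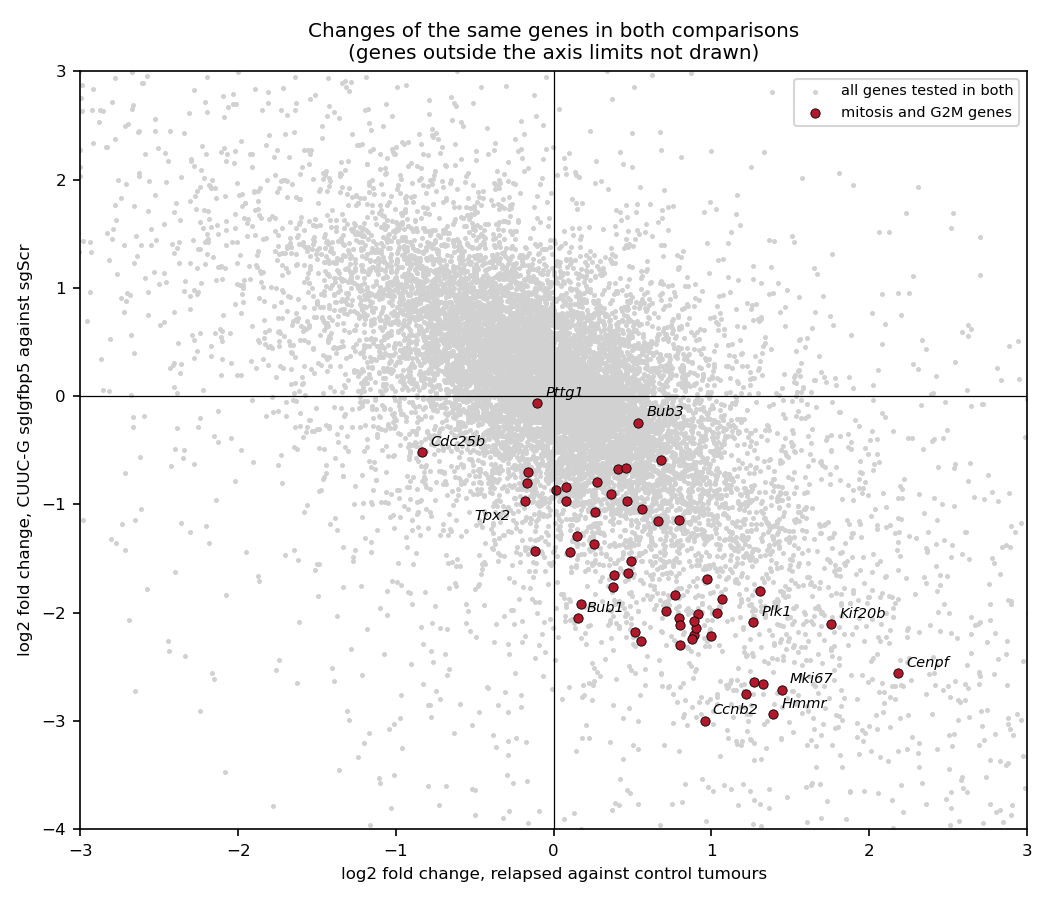
Each gene's log2 fold change at relapse (x axis) against its log2 fold change with sgIgfbp5 (y axis), with the 55 mitosis and G2M genes in red over the genes tested in both in grey. Grey genes beyond the axis limits are not drawn, so the spread of all genes is wider than shown. The red points fill the lower right, where 45 genes rose at relapse and fell with sgIgfbp5, with Cdc25b on the left and Pttg1 near 0.

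In the tumour table the 55 genes were spread over 371 transcripts, at the median 6 a gene. How reads divide between transcripts that overlap is an estimate. Protein-coding transcripts held 87.3% to 88.4% of the 55 genes' TPM in relapsed and 88.6% to 89.2% in control tumours, and retained-intron transcripts held 5.86% to 6.01% and 5.29% to 5.85%. Over all genes retained introns held 3.13% to 3.18% in relapsed and 3.12% to 3.28% in control tumours. The leading transcript was the same in both groups for 51 of the 55 genes. A shift of at least 15 percentage points in a transcript's share was seen in 6 genes, Kif15, Kif20a, Kif23, Kif4, Pttg1 and Spc24. In Kif20a the 3107-base coding transcript (ENSMUST00000166044.3) held 54.0%, 54.3% and 62.2% of the gene's TPM in relapsed, against 20.4%, 25.9% and 21.4% in control tumours, with no overlap. In Kif23 a retained-intron transcript of 524 bases held 24.4%, 23.1% and 26.2% in relapsed, against 12.1%, 11.9% and 3.04% in control tumours, on 203 and 30 counts. A short transcript weighs heavily in TPM, and Kif23 stood at 92.03, 93.3 and 71.5 TPM in the relapsed tumours, against 39.1, 31.2 and 36.9 TPM in the control tumours, beside a count-based log2 fold change of 0.80 ± 0.06. In Kif4 a 709-base transcript without a defined coding sequence held 16.6%, 11.7% and 26.3% in relapsed, against 3.27%, 0% and 0% in control tumours, on 94 and 3 counts. The Pttg1 estimates were unsteady between replicates, with 1 coding transcript (ENSMUST00000101340.11) at 65.8%, 53.3% and 64.0% in relapsed, against 0%, 53.8% and 0% in control tumours. In Spc24 the shift rests on 4 counts in relapsed and 17 in control tumours. In Kif15 the 4858-base coding transcript held 44.9%, 51.6% and 42.8% in relapsed, against 47.0%, 53.6% and 91.6% in control tumours, so control replicate 3 stands apart. A Kif15 retained-intron transcript shifted the other way on 16 counts in relapsed and 2 in control tumours.

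**Figure D5:**
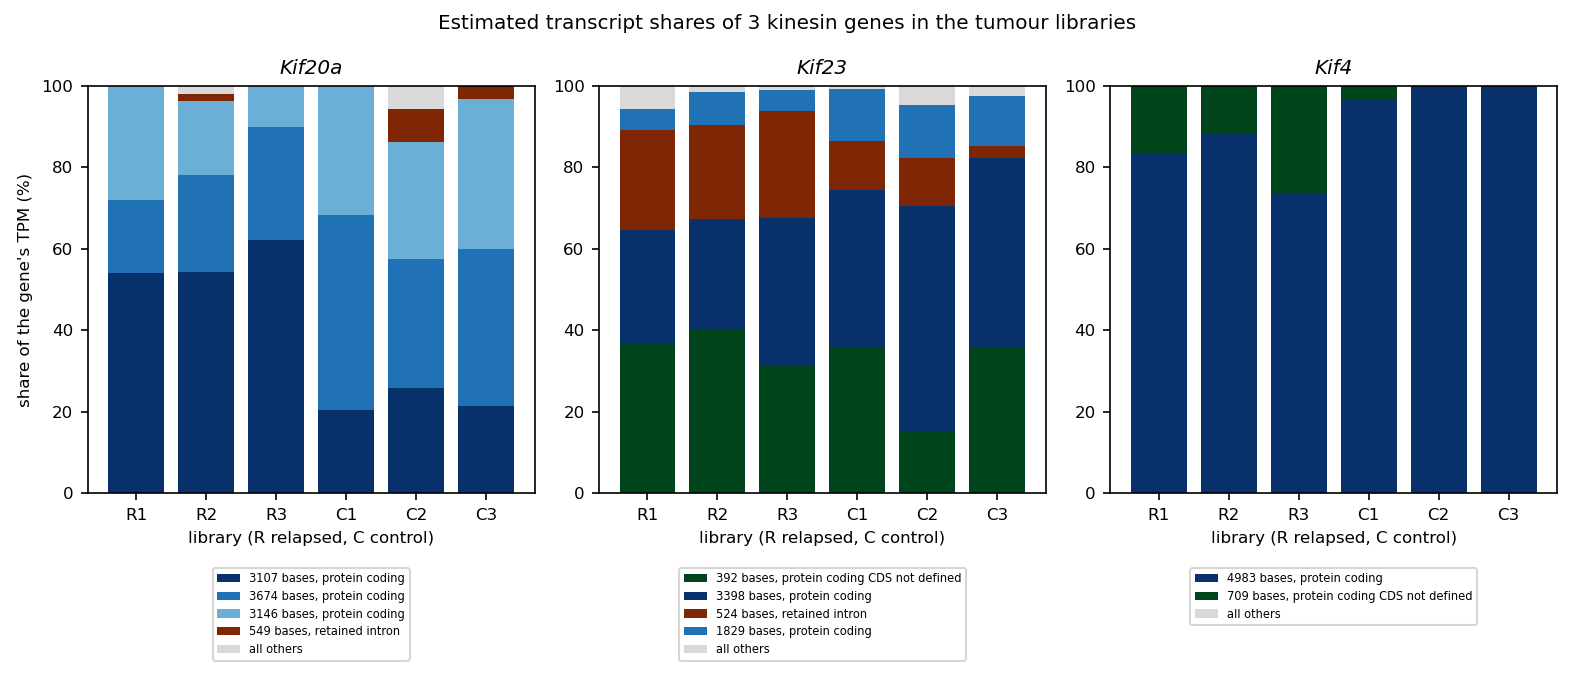
Share of the gene's TPM (y axis, percent) held by each transcript of Kif20a, Kif23 and Kif4 in the 3 relapsed (R1 to R3) and 3 control (C1 to C3) tumour libraries, with transcripts named by length and type and the remaining ones pooled in grey. The 3107-base transcript of Kif20a is above 54% in relapsed libraries and below 26% in control libraries.

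Beyond the 55 genes, 118 others of the same machinery were read in 6 lists, and 72 of them rose at relapse and 23 fell, against 36.6% and 36.9% of all genes. With sgIgfbp5, 16 rose and 79 fell, against 36.5% and 34.3% of all genes. Their median log2 fold changes were 0.28 and -0.65, closer to 0 than those of the 55 genes.

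Of 32 other kinetochore and centromere genes, 18 rose and 3 fell at relapse, with a median of 0.26. Pmf1, a subunit of the Mis12 complex, rose by 1.37 ± 0.08 and Hjurp, the chaperone of CENP-A, by 0.57 ± 0.03, while the centromere network genes Cenpq and Cenpn fell, with -1.16 ± 0.07 and -0.92 ± 0.09. With sgIgfbp5 24 of the 32 fell and 1 rose, with a median of -0.80. Examples were -1.56 ± 0.08 for Trip13, an ATPase that recycles Mad2, -2.27 ± 0.17 for Cenpm and 0.29 ± 0.11 for Oip5, the gene that rose. Of 24 other spindle and cytokinesis genes, 17 rose and 4 fell at relapse (median 0.40), and 21 fell and 2 rose with sgIgfbp5 (median -1.57). At relapse the abscission gene Cep55 rose by 1.65 ± 0.06 and Tacc3, which crosslinks spindle microtubules, by 1.30 ± 0.05, while Clasp2 and Ckap5, which act on microtubule ends, changed by -0.56 ± 0.05 and -0.42 ± 0.04. With sgIgfbp5 Cep55 and Tacc3 fell, with -2.66 ± 0.09 and -2.20 ± 0.08, and Numa1 and Clasp1 rose, with 0.55 ± 0.08 and 0.28 ± 0.09. Of 20 other mitotic regulators, 15 rose and 2 fell at relapse (median 0.41), and 16 fell and 1 rose with sgIgfbp5 (median -1.0). At relapse Ccnf, the cyclin F gene, rose by 1.98 ± 0.07 and Cdca3 by 1.68 ± 0.06, and Ensa, an inhibitor of PP2A, and the centriole kinase Plk4 fell, with -0.65 ± 0.04 and -0.15 ± 0.06. With sgIgfbp5 Cdca3 and the kinase Pbk fell, with -2.74 ± 0.09 and -1.96 ± 0.11, and Ensa rose by 0.71 ± 0.07.

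Of 17 genes of the anaphase-promoting complex and its regulators, 12 rose and 4 fell at relapse (median 0.26), and 7 fell and 5 rose with sgIgfbp5 (median -0.13). The inhibitor gene Fbxo5 rose by 1.06 ± 0.08 and the activator gene Fzr1 by 0.77 ± 0.06 at relapse, while the subunit genes Anapc1 and Cdc23 fell, with -0.60 ± 0.04 and -0.81 ± 0.05. With sgIgfbp5 Fbxo5 and Anapc4 fell, with -1.95 ± 0.11 and -0.85 ± 0.08, and Anapc16 and Cdc23 rose, with 1.19 ± 0.09 and 0.80 ± 0.07. Of 13 genes of cohesin and condensin II, 6 rose and 4 fell at relapse (median -0.01), and 8 fell and 3 rose with sgIgfbp5 (median -0.36). The cohesin subunit gene Smc3 and the condensin II gene Ncapg2 rose at relapse by 1.31 ± 0.04 and 0.89 ± 0.04, and Rad21 and Wapl, of cohesin and its release, fell, with -0.54 ± 0.03 and -0.41 ± 0.04. With sgIgfbp5 Ncapg2 and Stag1 fell, with -1.71 ± 0.13 and -1.60 ± 0.12, and Rad21 and the loader gene Mau2 rose, with 0.38 ± 0.07 and 0.51 ± 0.08. Of 12 genes of the DREAM and MuvB complexes and the RB family, 4 rose and 6 fell at relapse (median -0.22), and 4 rose and 3 fell with sgIgfbp5 (median 0.07). Tfdp1, the DP1 partner of E2F factors, rose by 0.65 ± 0.03 and E2f4 by 0.40 ± 0.05 at relapse, and Rb1 and Tfdp2 fell, with -1.42 ± 0.11 and -0.96 ± 0.06. With sgIgfbp5 Tfdp1 and Rbl1, which encodes p107, fell, with -0.56 ± 0.07 and -0.43 ± 0.11, and the MuvB genes Rbbp4 and Lin52 rose, with 0.76 ± 0.07 and 0.95 ± 0.11. Over all genes tested, 36.6% rose and 36.9% fell at relapse, and 36.5% rose and 34.3% fell with sgIgfbp5. Not far from these shares were the counts of the DREAM, MuvB and RB list. So were the anaphase-promoting complex counts with sgIgfbp5 and the cohesin and condensin II counts at relapse. Values after gene names in these lists are log2 fold changes with their SE from edgeR (n = 3 libraries a group).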

How the data were processed

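The authors deposited estimated counts and TPM per transcript for the tumours and per gene for CUUC-G. Salmon is the tool in the submitters' processing notes, with GRCm38 (mm10) among the builds. In CUUC-G, 153 values had a count of 0 with a TPM above 0, so its whole numbers are rounded estimates. Columns marked mI were taken as sgIgfbp5, as the labels mark the human targeted libraries hI. No table column lacked a sample (0 columns).

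Estimated counts were summed over 147828 transcripts to 55858 genes, rounded, and tested per table with edgeR 4.0.16 in R 4.3.3 (quasi-likelihood, TMM, filterByExpr, robust dispersion, two-sided, adjusted p under 0.05). The SE is the absolute log2 fold change over the square root of F. The members and lists were chosen with earlier results of these data known. Values in every library are given for 19 named genes, the 3 highest and 3 lowest log2 fold changes per comparison and every gene not past the threshold or against the majority, and of each further list the 2 genes with the smallest p per direction.

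Alternatives were RLE and library size scaling, DESeq2 1.42.0, other count filters, dispersion that was not robust, limma 3.58.1 on log2(TPM + 1) or log2(TPM + 0.1), a term for the replicate number, fits that omitted 1 library at a time, and a 2-fold minimum. The fits were tested on simulated counts. Of 50 genes changed 1.5-fold, 41 were recovered with the tumour settings and 36 with those of CUUC-G. Of 50 changed 2-fold, 48 and 45 were recovered. False calls among unchanged genes numbered 20 and 12, so calls of changes under 1.5-fold are less certain. Libraries of a group differed beyond counting noise, with a chi-square per degree of freedom of 2.65 to 17. Promoter windows are RefSeq's for GRCm38.p6.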

Additional observations from a re-analysis of the deposited data

How the results depend on the processing

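At relapse 45 genes were higher and 2 lower, and 42 of the 55 kept their direction and call under all 16 alternatives other than the 2-fold minimum. The counts were 43 to 47 higher and 2 or 3 lower with 1 library left out, and with limma on log2(TPM + 1) or log2(TPM + 0.1) 38 were higher and 4 lower. A fold of at least 2 left 12 higher and 0 lower. With sgIgfbp5 50 of the 55 kept direction and call under its 16 such alternatives, and 50 to 54 genes were lower without a fold minimum, 53 or 54 with 1 library left out and 40 at 2-fold or more. Directions turned for Cdca8 at relapse, at -0.0046 by library size, -0.0036 without a count filter, -0.10 on log2(TPM + 1) with or without a TPM filter, -0.10 on log2(TPM + 0.1) and -0.041 to 0.045 with 1 library left out. On log2(TPM + 1), with or without a TPM filter, the log2 fold changes at relapse were -0.052 for Aurka, -0.0198 for Ect2, -0.11 for Racgap1 and -0.0214 for Ube2c, and on log2(TPM + 0.1) they were -0.053, -0.0201, -0.11 and -0.0214. Pttg1 with sgIgfbp5 came to 0.043 by library size and -0.14 to 0.0084 with 1 library left out. The cause was not tested. The replicate number as a block gave 45 higher and 2 lower at relapse and 54 lower with sgIgfbp5, and changed no call. The deviations of same-numbered libraries from their group means had r between 0.006 and 0.015 in tumours, and -0.082 to 0.093 in CUUC-G. For differently numbered libraries r was -0.015 to 0.002 in tumours and -0.144 to 0.129 in CUUC-G. These values show no clear pairing by number, and 3 libraries a group cannot exclude it. The lowest summed count of a group was 528 in tumours and 246 in CUUC-G, and small changes such as those of Bub1 and Bub3 lie at the limit of 3 libraries a group.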
